A study of Mus musculus with 12 samples.

Results

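The genes described here are 44 cell cycle and DNA replication genes, taken by symbol from a given list and found among the 36186 genes of the deposited table. All 44 were found, and all 44 passed the filter on low counts in each of 4 comparisons. By their roles they were put into 24 mitosis genes, 14 DNA replication genes and 6 regulators. The 12 RNA-seq libraries, 3 for each of 4 genotypes, hold RNA of entire mouse kidneys dissected from E18.5 embryos. Wild type kidneys (replicates 30, 37 and 55) carry no mutant Hox allele by their label. The Hoxa-/- Hoxc+/- group (replicates 20, 31 and 33) is homozygous for mutant Hoxa9, Hoxa10 and Hoxa11 and heterozygous for mutant Hoxc9, Hoxc10 and Hoxc11. The Hoxa+/- Hoxc-/- group (replicates 38, 110 and AC115) has the reverse, and the Hoxa-/- Hoxc-/- group (replicates 24, 27 and 29), called double mutant below, is homozygous for both by its labels. The alleles are germline frameshifts present in every cell, so they are not limited to the kidney, and their transcripts are still made: Hoxc11, the least abundant of the 6 mutated genes, had 0.894 to 2.91 CPM (counts scaled to library size) over the 12 libraries. The labels give the double mutants as homozygous mutant for Hoxa11, but the paper gives every sequenced double mutant a wild type copy of that gene or both, without saying which library has which, and found no kidneys at this age in embryos lacking all copies of the mutated genes. All 3 Hoxa+/- Hoxc-/- libraries come from 1 sequencing run and the remaining 9 from another, so run and genotype cannot be told apart for that group.

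Before a cell divides, the licensing factors Cdc6 and Cdt1 load the ring of Mcm proteins onto DNA, Cdc45 and the GINS complex turn that ring into a working helicase, the clamp Pcna holds the polymerases on their template, and ribonucleotide reductase and thymidylate synthase supply the building blocks. In mitosis, Cdk1 with cyclin B, the Aurora and Polo kinases, spindle motors and centromere proteins separate the chromosomes, after which a midzone complex and the contractile ring divide the cell; E2F factors drive genes of the first program, and Foxm1 and Mybl2 drive those of the second. In the fetal kidney these genes are on in dividing nephron progenitors, in the tips of the ureteric bud and in stromal progenitors, and they are switched off as nephron cells mature.

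Counts on genes ranged from 28616878 in Hoxa-/- Hoxc+/- replicate 20 to 47067926 in Hoxa+/- Hoxc-/- replicate 110. At these depths 3 counts, the floor used here, correspond to 0.0614 to 0.115 CPM, a limit that covers counting error only, and each member was above it in each library. In wild type, the level per kilobase of transcript was highest for Pcna at 141 ± 17.6 CPM per kilobase (SD, n = 3), followed by the DNA-untangling enzyme Top2a at 73.2 ± 1.94. The helicase subunit Mcm7 came next at 57.1 ± 5.95 CPM per kilobase, within the spread of the spindle checkpoint target Cdc20 at 54.2 ± 4.58. Lowest were the regulator Mybl2 at 5.95 ± 0.627 and the S phase cyclin Ccne2 at 4.46 ± 0.428 CPM per kilobase. The proliferation marker Mki67, whose transcript is long, stood at 28.8 ± 2.30.

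As a share of all counts on genes, the 44 members took 0.416%, 0.470% and 0.473% in wild type replicates 30, 37 and 55. The share was 0.531%, 0.422% and 0.394% in Hoxa-/- Hoxc+/- replicates 20, 31 and 33, and 0.353%, 0.471% and 0.471% in Hoxa+/- Hoxc-/- replicates 38, 110 and AC115. In the double mutants it was 0.354%, 0.252% and 0.378% in replicates 24, 27 and 29. The double mutant shares all lay below the wild type shares, and each mutant group had 1 library far from its other libraries.

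Those libraries stand apart as follows. Double mutant replicate 27 was the lowest of the 12 libraries for 42 of the 44 members, with a median log2 ratio to the wild type mean of -0.83, against -0.24 and -0.22 in replicates 24 and 29. Hoxa-/- Hoxc+/- replicate 20 was the highest of the 12 for 30 members, with a median log2 ratio of 0.36, against -0.11 and -0.15 in replicates 31 and 33. That library also had the fewest counts, the lowest TMM factor (0.913, the others 0.969 to 1.04) and the widest spread over all genes, an interquartile range of log2 ratios of 0.742 (0.544 in double mutant replicate 27, which was next). Hoxa+/- Hoxc-/- replicate 38 was the lowest of its group for 43 members, with a median of -0.35, against 0.03 and 0.01 in replicates 110 and AC115. For the members, medians and calls are given below with and without these libraries. The further gene lists and marker lists were tested with all libraries of each comparison only.

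**Figure D1:**
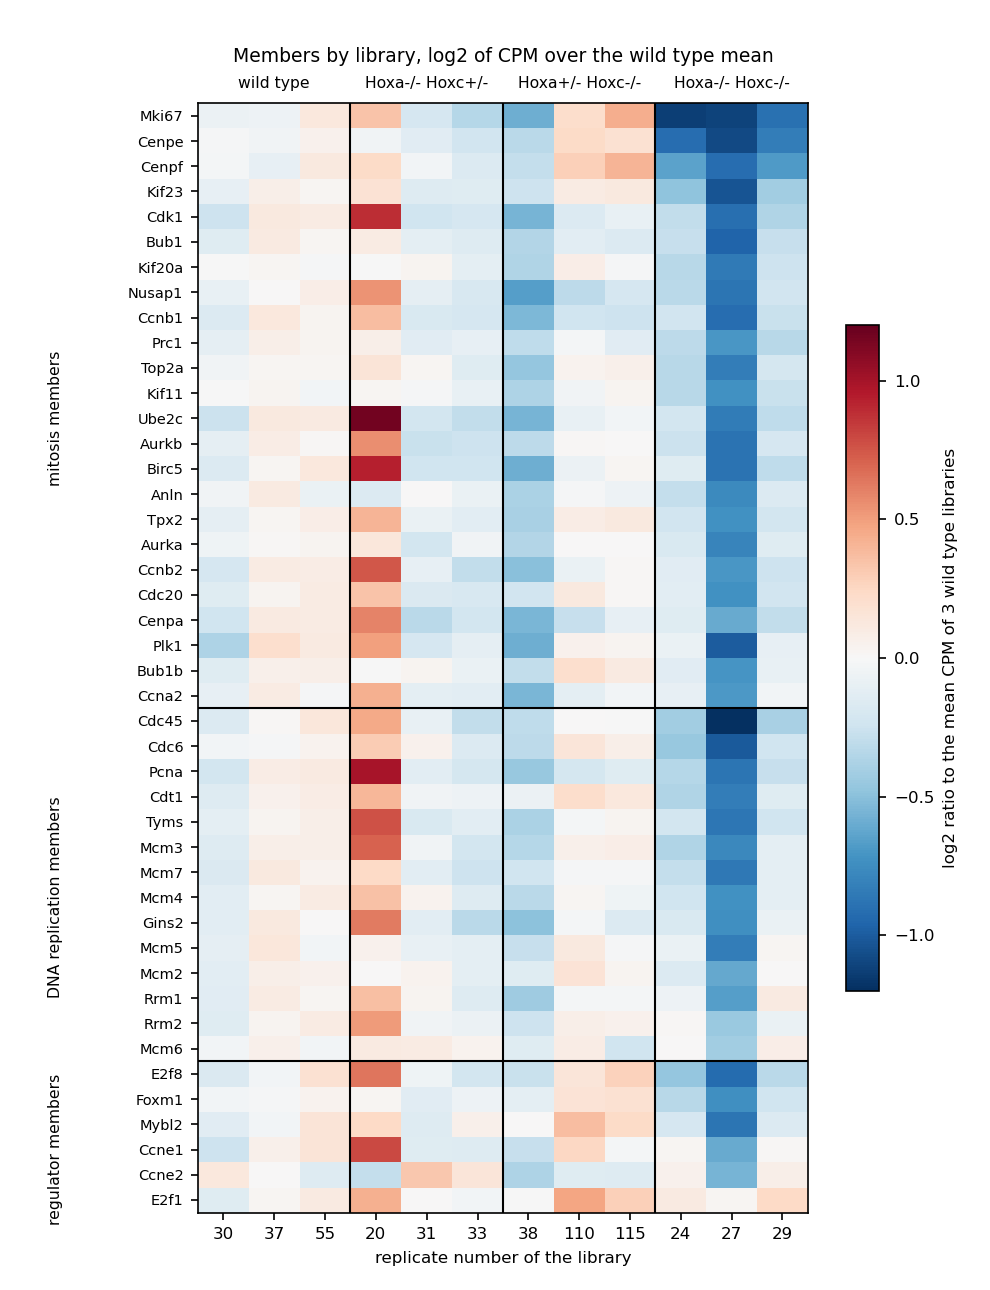
Each row is 1 of the 44 members and each column 1 of the 12 libraries, grouped by genotype; the colour is the log2 ratio of CPM to the mean of the 3 wild type libraries. Double mutant replicate 27 is the darkest blue column, with a median of -0.83, and Hoxa-/- Hoxc+/- replicate 20 the reddest, with a median of 0.36; Mki67, Cenpe and Cenpf are dark blue in all 3 double mutant libraries.

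In double mutant kidneys compared with wild type, 6 of the 44 members fell at an adjusted p under 0.05 in edgeR, and none rose; over all 15839 genes tested, 7.4% fell and 6.31% rose. All 6 are mitosis genes: the proliferation marker Mki67, the centromere proteins Cenpe and Cenpf, the cytokinesis proteins Kif23 and Prc1, and the spindle motor Kif11. The log2 fold change was below 0 for 43 of the 44, with a median of -0.40 (0.757-fold), against a median of -0.01 over all genes tested. In whole kidney RNA, fewer dividing cells and less of these transcripts per cell cannot be told apart.

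Mki67 (Entrez 17345, chromosome 7 from 135689784 to 135716450), which coats mitotic chromosomes and is used to stain dividing cells, had 275, 277 and 316 CPM in wild type and 132, 134 and 155 CPM in the double mutants. The double mutant libraries were all far below the wild type libraries and close to each other, replicate 27 included. Its log2 fold change was -1.05 (SE 0.0971), the lowest of the 44, with an adjusted p of 0.00173 (1.94e-18 to 0.0716 over 15 alternatives).

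Cenpe (Entrez 229841, chromosome 3 from 135212563 to 135273540), the kinesin that carries chromosomes to the middle of the spindle, had 73.5, 72.0 and 76.7 CPM in wild type and 39.2, 34.9 and 41.8 CPM in the double mutants. Here too the groups were apart and each was tight. The log2 fold change was -0.94 (SE 0.0858, adjusted p 0.00173, 8.43e-17 to 0.012 over the alternatives). Cenpf (Entrez 108000, chromosome 1 from 189640606 to 189688107), a large kinetochore protein, had 93.8, 88.8 and 103 CPM in wild type and 60.8, 50.5 and 59.5 CPM in the double mutants. The groups did not overlap, and the log2 fold change was -0.74 (SE 0.0962, adjusted p 0.00516, 1.1e-08 to 0.0649 over the alternatives).

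Kif23 (Entrez 71819, chromosome 9 from 61917277 to 61946810), a motor of the spindle midzone needed for cell division, had 68.8, 77.6 and 74.9 CPM in wild type and 52.7, 35.9 and 55.3 CPM in the double mutants. Its groups did not overlap, but replicate 27 was well below the other double mutants, and the log2 fold change was -0.62 (SE 0.155, adjusted p 0.0386, 0.00278 to 0.133 over the alternatives). Prc1 (Entrez 233406, chromosome 7 from 80294445 to 80316259), which bundles the microtubules of that midzone, had 95.1, 107 and 105 CPM in wild type and 82.3, 63.3 and 81.2 CPM in the double mutants. Kif11 (Entrez 16551, chromosome 19 from 37376382 to 37421863), the motor that pushes spindle poles apart, had 104, 107 and 102 CPM in wild type and 82.5, 62.7 and 86.5 CPM in the double mutants. For both, the groups were apart and replicate 27 was the lowest. Prc1 had a log2 fold change of -0.44 (SE 0.111, adjusted p 0.0398, 0.00728 to 0.145 over the alternatives) and Kif11 -0.43 (SE 0.118, adjusted p 0.0495, 0.0128 to 0.158).

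**Figure D2:**
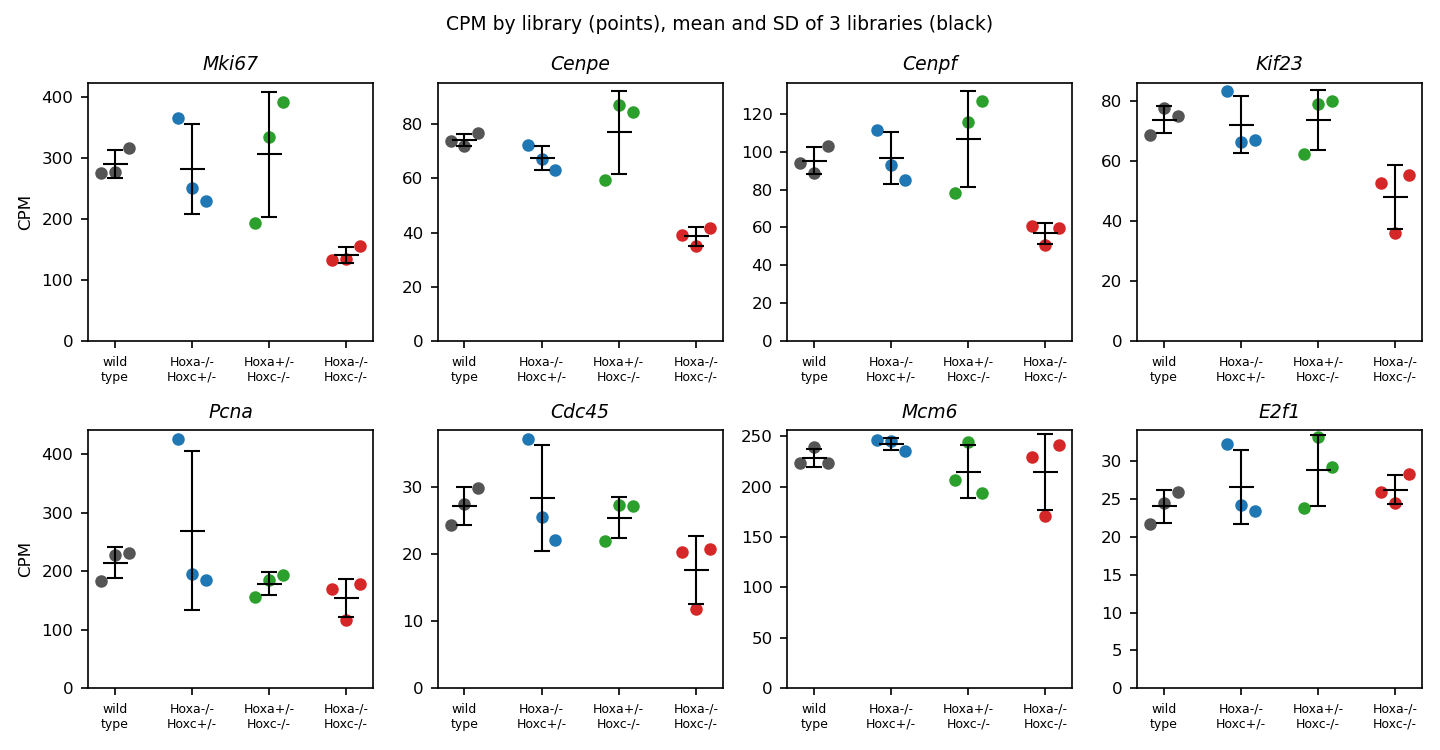
CPM of 8 members, 1 point per library, with the mean and SD of the 3 libraries of each genotype in black and every axis from 0. Mki67, Cenpe, Cenpf and Kif23 have all 3 double mutant points below every other point; the double mutant points of Pcna and Cdc45 are below all wild type points, and those of Mcm6 and E2f1 overlap them.

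The 6 calls differed in how well they held. Cenpe passed in all 9 alternative settings and in all 6 fits that left out a library. Mki67 and Cenpf passed in 8 of 9 and 6 of 6, and missed in the fit with Xist level as a covariate (adjusted p 0.0716 and 0.0649), in which their log2 fold changes were -0.97 and -0.69. Kif23 passed in 6 of 9 and 3 of 6, Prc1 in 6 of 9 and 1 of 6, and Kif11 in 3 of 9 and 2 of 6.

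The other 18 mitosis genes had log2 fold changes from -0.50 for Cdk1, the kinase that starts mitosis, to -0.25 for its partner Ccna2, and none passed the test in edgeR. DESeq2 called 4 of them, Top2a, Cdk1, Kif20a and Nusap1 (10.3% of all genes were called lower by DESeq2), and limma 0 (4.13%); in edgeR, Cdk1 passed without wild type replicate 30. Cdk1 had 100.0, 129 and 127 CPM in wild type and 96.5, 63.3 and 92.5 CPM in the double mutants, which is a gap of a few CPM between the groups, and its adjusted p was 0.0873. The checkpoint kinase Bub1 had 49.6, 59.0 and 55.7 CPM in wild type and 45.4, 28.1 and 45.3 CPM in the double mutants (log2 fold change -0.47, adjusted p 0.117). Top2a had 371, 388 and 388 CPM in wild type and 304, 215 and 331 CPM in the double mutants (log2 fold change -0.44, adjusted p 0.0924). In all 3 genes replicate 27 was lowest and the other double mutants lay under the lowest wild type library. The mitotic cyclins Ccnb1 and Ccnb2 had log2 fold changes of -0.44 and -0.34, the kinases Aurka, Aurkb and Plk1 -0.35, -0.42 and -0.34, and Cdc20 and Ube2c, which serve the destruction of cyclins, -0.34 and -0.43. The same quantity was -0.34 for the centromeric histone Cenpa, -0.29 for the checkpoint kinase Bub1b, -0.41 for Birc5 of the chromosomal passenger complex, and -0.46, -0.38, -0.45 and -0.38 for Kif20a, Tpx2, Nusap1 and Anln, proteins of the spindle and the dividing cortex. Over the 24 mitosis genes the median was -0.43, 17 had an unadjusted p under 0.05, and 16 had every double mutant library below every wild type library. Over all genes tested, 16.8% were lower and 15.6% higher at an unadjusted p under 0.05. Of all 44 members 23 were apart in that way, against 20.6% of all genes tested.

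No replication gene passed the test in the main fit. All 14 had log2 fold changes below 0, with a median of -0.36, and 6 had an unadjusted p under 0.05 in edgeR (16.8% of all genes were lower at that p); DESeq2 called 3 of them (Cdc45, Cdc6 and Pcna; 10.3% of all genes were called lower), and limma on the deposited log2 values called 0 (4.13%). Without double mutant replicate 29, edgeR called Cdc6. The difference between 6 of 24 mitosis genes and 0 of 14 replication genes was not tested. Cdc45 had 24.3, 27.5 and 29.9 CPM in wild type and 20.3, 11.8 and 20.8 CPM in the double mutants, apart but with replicate 27 far below the rest, and its log2 fold change was -0.63 (SE 0.210, adjusted p 0.0845). Cdc6 had 27.1, 27.5 and 28.5 CPM in wild type and 20.2, 13.7 and 23.4 CPM in the double mutants (log2 fold change -0.54, SE 0.180, adjusted p 0.0867). Pcna had 184, 228 and 231 CPM in wild type and 169, 117 and 177 CPM in the double mutants (log2 fold change -0.48, SE 0.166, adjusted p 0.0943). These 3 and the nucleotide enzyme Tyms (-0.41) were the replication genes whose groups did not overlap. For the Mcm ring the log2 fold changes were -0.24 for Mcm2, -0.39 for Mcm3, -0.34 for Mcm4, -0.25 for Mcm5, -0.10 for Mcm6 and -0.39 for Mcm7. Mcm6 had 224, 239 and 224 CPM in wild type and 230, 171 and 242 CPM in the double mutants, so 2 of the 3 double mutants lay within or above the wild type range. The loading factor Cdt1 and the helicase subunit Gins2 had -0.42 and -0.31, and the ribonucleotide reductase subunits Rrm1 and Rrm2 -0.17 and -0.16.

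None of the 6 regulators passed the test in edgeR, though 2 had an unadjusted p under 0.05 (16.8% of all genes were lower at that p) and DESeq2 called 2 (10.3% of all genes lower); limma called 0. In edgeR, E2f8 and Foxm1 passed with library size only, E2f8 without wild type replicate 30 and Foxm1 without double mutant replicate 29. E2f8, a repressor that closes S phase and is itself made in dividing cells, had 27.4, 30.3 and 35.1 CPM in wild type and 22.5, 16.4 and 24.7 CPM in the double mutants, without overlap (log2 fold change -0.55, SE 0.165, adjusted p 0.0634). Foxm1, the activator of mitotic genes, had 63.5, 64.3 and 67.1 CPM in wild type and 51.5, 39.0 and 54.9 CPM in the double mutants, also without overlap (-0.43, SE 0.125, adjusted p 0.0602). Mybl2, which works beside Foxm1, was apart too, by less than 1 CPM, at -0.38. The cyclins Ccne1 and Ccne2 had -0.16 and -0.12, with overlapping groups. E2f1, the activator of replication genes, was the 1 member above 0: it had 21.7, 24.4 and 25.9 CPM in wild type and 25.9, 24.5 and 28.3 CPM in the double mutants, at 0.12 (SE 0.103, adjusted p 0.430). Replicate 27, lowest for nearly all other members, had E2f1 within the wild type range.

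**Figure D3:**
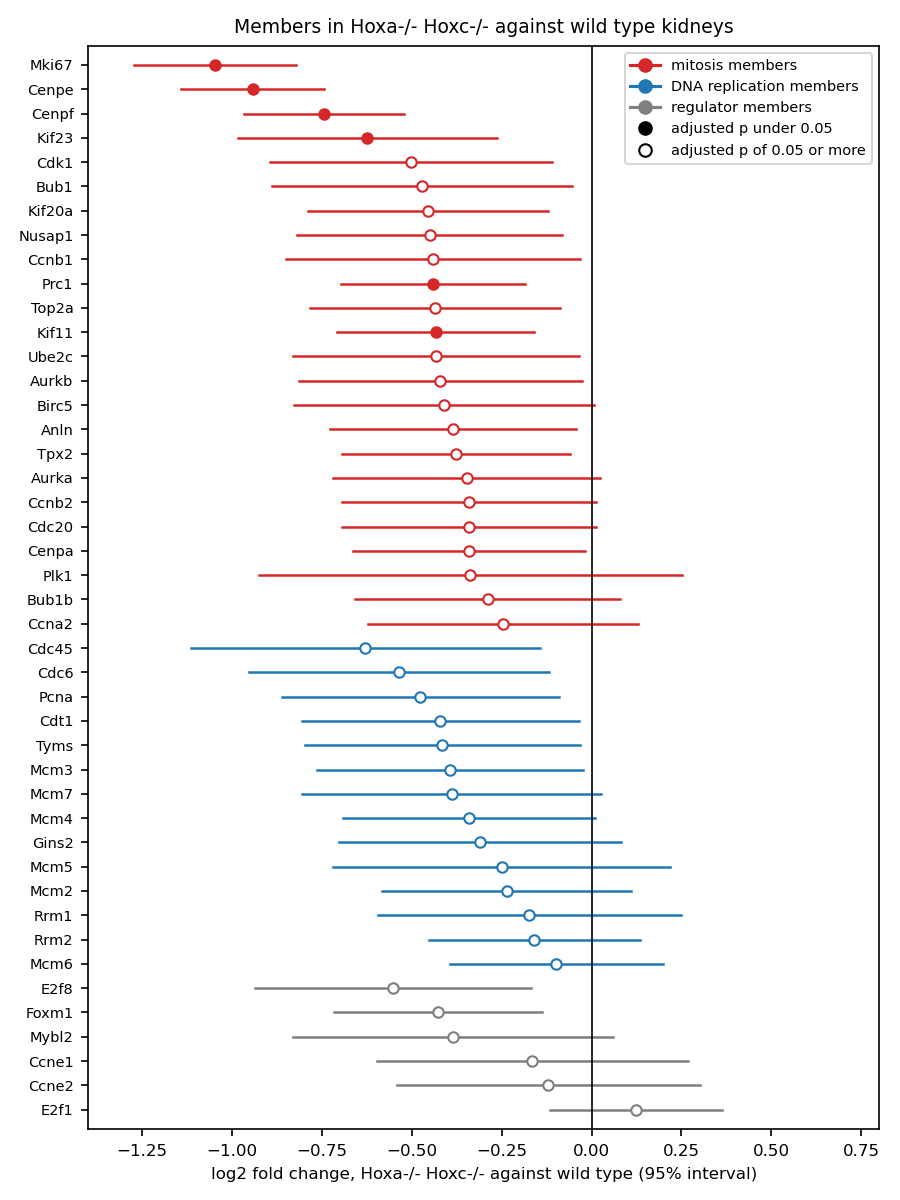
Log2 fold change of the 44 members in double mutants against wild type, with 95% intervals from edgeR, ordered within mitosis genes (red), replication genes (blue) and regulators (grey). The 6 filled points, from Mki67 at -1.05 to Kif11 at -0.43, have an adjusted p under 0.05; E2f1 is the 1 point above 0.

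Without double mutant replicate 27 the median log2 fold change over the members was -0.23 in place of -0.40, and 39 of 44 were below 0. Then 5 members passed, with 3.92% of all genes lower: Mki67 at -1.01, Cenpe at -0.87, Cenpf at -0.66, Kif23 at -0.45 and Kif11 at -0.30, while Prc1 missed at an adjusted p of 0.0565. Mcm6, Rrm1, Ccne1 and Ccne2 changed sign without it, to 0.04, 0.02, 0.02 and 0.06. Mki67, Cenpe and Cenpf were thus about as low in replicates 24 and 29 as in all 3, whereas the size of the difference over the other members rests in large part on replicate 27. Leaving out wild type replicate 37, wild type replicate 55 or double mutant replicate 24 left 3 members called, in each case Mki67, Cenpe and Cenpf, with 1.64%, 1.94% and 2.25% of all genes lower.

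Promoters were compared because the members fell into mitosis and replication programs with known sequence elements. RefSeq windows of GRCm38.p6, 250 bases before to 50 bases after the start, were found for 36 of the 44 members; those of Ccna2, Ccne2, Tpx2, Aurkb, Mcm4, Kif20a, Foxm1 and Gins2 were missing. A script looked on both strands for the cell cycle homology region (CHR; TTTGAA or TTCGAA), the CCAAT box (CCAAT) and an E2F motif (TTTCCCGC, TTTCGCGC, TTTGCCGC or TTTGGCGC); no motif contains another. The CHR letters were in 16 of 20 mitosis windows (80.0%), 3 of 12 replication windows and 1 of 4 regulator windows, against 19.4% of the windows of 27025 genes. CCAAT was in 17 of 20 mitosis windows, 9 of 12 replication windows and 1 of 4 regulator windows, against 37.9% of all. The E2F letters were in 1 of 20 mitosis windows, 6 of 12 replication windows and 0 of 4 regulator windows, against 2.32% of all. In the lists of further genes described below, CHR letters were in 31 of 42 other mitosis windows (73.8%) and 7 of 34 other replication windows (20.6%), CCAAT in 29 (69.0%) and 18 (52.9%), and E2F letters in 5 (11.9%) and 8 (23.5%). A match is a description of letters only, and the absence of one says nothing about the factor. The windows of the 4 mitosis genes with the lowest log2 fold changes and of the 2 replication genes with the lowest are shown, 5′ to 3′ on the gene's strand, with the matches to these motifs on either strand in capitals. They lie at chr7:135716330-135716629 (minus strand) for Mki67, chr3:135212313-135212612 (plus) for Cenpe, chr1:189688037-189688336 (minus) for Cenpf, chr9:61946750-61947049 (minus) for Kif23, chr16:18811923-18812222 (minus) for Cdc45 and chr11:98907901-98908200 (plus) for Cdc6. The start is that of the first window in the reference table, which for Mki67, Cenpf, Kif23 and Cdc6 lies inside the RefSeq limits of the gene, furthest for Cdc6 (gene start at 98907709).
Mki67: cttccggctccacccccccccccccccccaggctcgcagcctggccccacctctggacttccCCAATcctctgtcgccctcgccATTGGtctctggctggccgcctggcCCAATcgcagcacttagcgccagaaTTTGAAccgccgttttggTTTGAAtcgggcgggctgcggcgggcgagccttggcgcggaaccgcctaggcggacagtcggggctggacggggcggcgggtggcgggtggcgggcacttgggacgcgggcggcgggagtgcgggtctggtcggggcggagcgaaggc
Cenpe: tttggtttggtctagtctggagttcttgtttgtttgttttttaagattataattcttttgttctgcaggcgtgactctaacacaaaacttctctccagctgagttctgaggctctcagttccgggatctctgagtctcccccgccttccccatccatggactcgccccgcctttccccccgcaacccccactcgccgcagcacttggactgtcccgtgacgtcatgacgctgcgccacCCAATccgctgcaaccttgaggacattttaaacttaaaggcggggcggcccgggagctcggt
Cenpf: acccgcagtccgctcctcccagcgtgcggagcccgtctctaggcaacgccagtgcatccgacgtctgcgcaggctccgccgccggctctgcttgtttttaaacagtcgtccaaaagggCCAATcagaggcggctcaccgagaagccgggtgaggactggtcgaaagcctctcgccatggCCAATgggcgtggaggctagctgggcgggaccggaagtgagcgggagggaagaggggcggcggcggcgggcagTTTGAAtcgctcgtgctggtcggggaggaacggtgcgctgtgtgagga
Kif23: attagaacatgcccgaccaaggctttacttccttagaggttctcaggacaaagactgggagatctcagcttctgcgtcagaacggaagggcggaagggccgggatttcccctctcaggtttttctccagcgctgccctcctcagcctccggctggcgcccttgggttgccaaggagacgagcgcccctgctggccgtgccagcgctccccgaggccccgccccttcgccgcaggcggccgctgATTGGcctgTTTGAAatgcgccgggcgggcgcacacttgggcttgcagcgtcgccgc
Cdc45: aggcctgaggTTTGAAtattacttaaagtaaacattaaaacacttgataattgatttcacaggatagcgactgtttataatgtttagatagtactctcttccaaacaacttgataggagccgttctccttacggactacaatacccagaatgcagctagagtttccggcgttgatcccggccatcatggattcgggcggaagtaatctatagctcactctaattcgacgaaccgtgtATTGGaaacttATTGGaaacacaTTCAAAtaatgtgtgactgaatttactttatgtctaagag
Cdc6: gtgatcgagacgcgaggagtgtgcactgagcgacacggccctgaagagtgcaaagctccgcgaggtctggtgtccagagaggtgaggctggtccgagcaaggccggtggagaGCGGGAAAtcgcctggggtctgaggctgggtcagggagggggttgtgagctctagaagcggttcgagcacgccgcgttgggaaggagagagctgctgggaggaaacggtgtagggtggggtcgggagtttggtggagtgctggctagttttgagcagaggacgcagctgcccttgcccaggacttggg
In these windows, Mki67 holds 2 CHR and 3 CCAAT matches, Cenpf 1 and 2, and Kif23 1 and 1, whereas Cenpe holds 1 CCAAT and no CHR letters. The replication genes differ from each other: Cdc45 holds 2 CHR and 2 CCAAT matches and no E2F letters, and Cdc6 holds 1 E2F match and neither of the others.

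Further genes of the same programs gave the following in double mutants against wild type, where 7.4% of all genes fell and 6.31% rose. Of 41 other replication genes, 8 fell and none rose, 41 had a log2 fold change below 0, and the median was -0.35. Their median log2 ratio to the wild type mean was -0.24, -0.67 and -0.17 in double mutant replicates 24, 27 and 29. Rfc1, the large subunit of the clamp loader, had 97.7, 101 and 98.1 CPM in wild type and 70.8, 72.5 and 76.4 CPM in the double mutants, apart and tight in both groups (log2 fold change -0.44, SE 0.0638, adjusted p 0.00729). The origin-firing kinase Cdc7 fell by 0.72 on the log2 scale (SE 0.149, adjusted p 0.0233), and Gmnn, the inhibitor of Cdt1, by 0.54 (SE 0.116, adjusted p 0.025). So replication genes outside the 14 members did pass the test, although none of the 14 did in the main fit.

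Of 48 other mitosis genes (50 listed names, 2 of them older or newer forms that were not in the table), 11 fell and none rose, 47 were below 0, and the median was -0.46. Aspm, a spindle pole protein, had 56.5, 58.3 and 61.5 CPM in wild type and 38.7, 34.8 and 44.9 CPM in the double mutants (log2 fold change -0.58, SE 0.103, adjusted p 0.0142). The condensin subunit Smc2 fell by 0.54 (SE 0.105, adjusted p 0.0186) and Incenp, the scaffold of the chromosomal passenger complex, by 0.59 (SE 0.117, adjusted p 0.0197). All 3 had every double mutant library below every wild type library. Over the 48 genes the median log2 ratio to the wild type mean was -0.33, -0.80 and -0.27 in double mutant replicates 24, 27 and 29. Replicate 27 was the lowest of the 12 libraries for 45 of them.

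Calls among genes that control entry into the cycle were in both directions. Of 33 G1 cyclins, cyclin-dependent kinases, their inhibitors and related factors, 32 were tested, 6 fell, 2 rose (6.31% of all genes rose), and the median was -0.21. Ccnd3, a cyclin of early G1, had 178, 189 and 184 CPM in wild type and 261, 260.0 and 254 CPM in the double mutants, the groups far apart (log2 fold change 0.49, SE 0.0652, adjusted p 0.00557). Cdkn1c, a kinase inhibitor that is high in podocytes, had 564, 796 and 763 CPM in wild type and 1144, 1016 and 1064 CPM in the double mutants (0.60, SE 0.135, adjusted p 0.0282). Cdkn1b, another inhibitor, went the other way, with 77.8, 82.5 and 81.9 CPM in wild type and 58.1, 62.2 and 52.9 CPM in the double mutants (-0.49, SE 0.0784, adjusted p 0.00996). Fbxo5, which restrains the destruction of cyclins, fell by 0.69 (SE 0.136, adjusted p 0.0194). Ccnd1 and Cdkn1a overlapped between the groups, at -0.21 (adjusted p 0.290) and 0.49 (adjusted p 0.157); Cdkn1a was highest of the double mutants in replicate 27, at 97.02 CPM against 73.5 and 62.1.

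**Figure D4:**
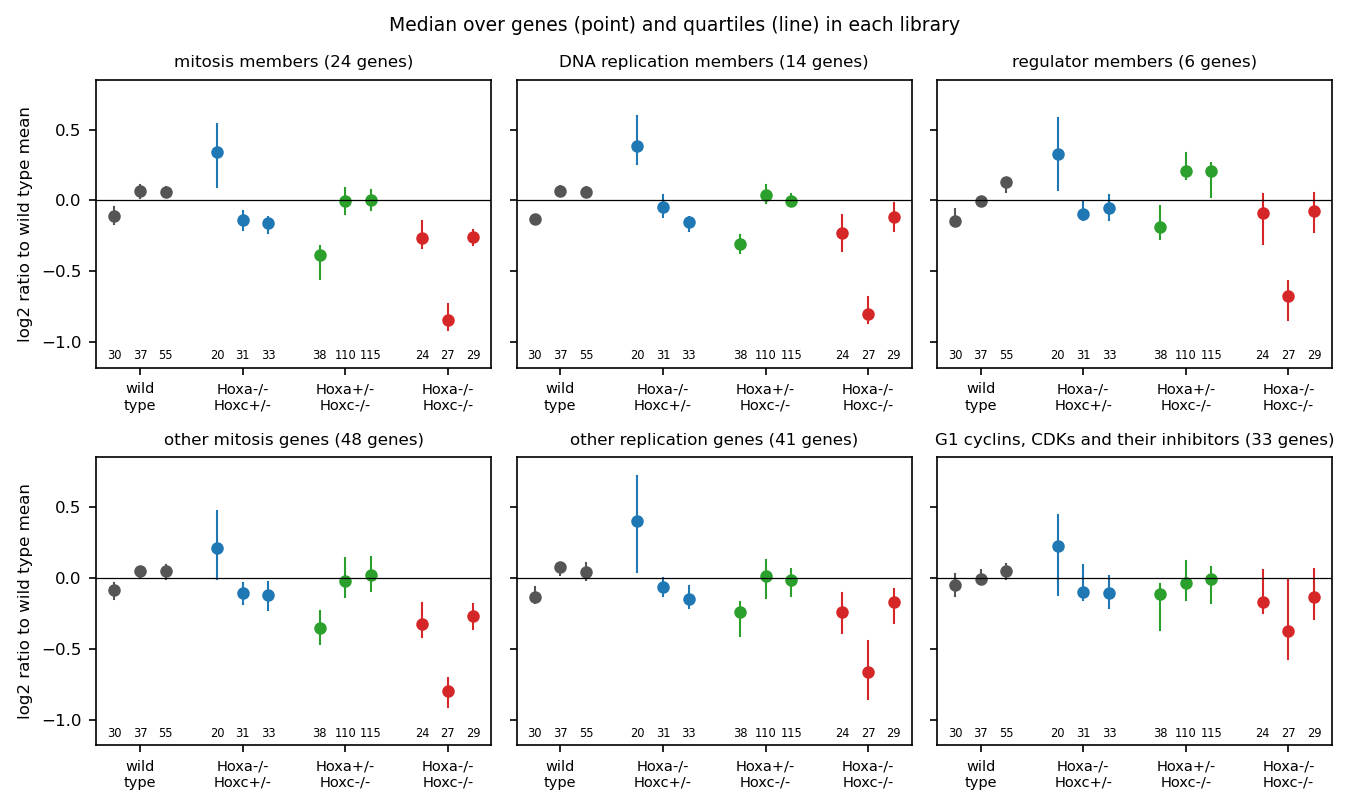
Median (point) and quartiles (line) of the log2 ratio of CPM to the wild type mean over the genes of each list, for each of the 12 libraries, with replicate numbers at the foot. In the mitosis panel the double mutants are at -0.27, -0.84 and -0.26; replicate 27 is the lowest library in all 6 panels, and Hoxa-/- Hoxc+/- replicate 20 the highest.

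Cell type markers moved in the same libraries, and their part in these differences was not tested. Several progenitor, ureteric tip and stromal markers, among them Six2, Cited1 and Col3a1, are genes the paper had already reported as changed in its mutants. The counts and medians of these lists are therefore a description and not separate support. For the counts of this and the following lists, 7.4% of all genes fell and 6.31% rose in double mutants against wild type. At an unadjusted p under 0.05 in edgeR, 16.8% were lower and 15.6% higher. Of 12 nephron progenitor markers, 5 fell in the double mutants and none rose, 11 were below 0, and the median log2 fold change was -0.79. Itga8 was the most abundant, here and in the lists below by mean over the 12 libraries. The summed level of these markers was 912, 1090 and 1197 CPM in wild type replicates 30, 37 and 55. It was 671, 501 and 829 CPM in double mutant replicates 24, 27 and 29. Replicate 27, the lowest for the cell cycle members, had the lowest of these sums too. Six2 had 67.1, 84.1 and 105 CPM in wild type and 28.0, 13.2 and 58.3 CPM in the double mutants (log2 fold change -1.37, adjusted p 0.0868 in edgeR). Cited1 fell by 1.45 (adjusted p 0.0327). In Hoxa-/- Hoxc+/- replicates 20, 31 and 33 the sum was 1427, 1022 and 926 CPM, and in Hoxa+/- Hoxc-/- replicates 38, 110 and AC115 it was 925, 1076 and 1103 CPM, so replicate 20, highest for the cell cycle members, was highest here as well. Of 6 ureteric tip markers, 5 fell, with a median of -0.83. Their sum was 301, 358 and 350.0 CPM in wild type, 376, 317 and 277 in Hoxa-/- Hoxc+/-, 277, 309 and 320 in Hoxa+/- Hoxc-/- and 195, 147 and 230 in the double mutants; Etv5 was the most abundant and Ret fell by 1.77 (adjusted p 0.00958). Of 6 early nephron markers 1 fell (Lhx1, by 0.55), with a median of -0.52; the sums were 469, 499 and 571 CPM in wild type, 619, 480 and 430 in Hoxa-/- Hoxc+/-, 463, 515 and 555 in Hoxa+/- Hoxc-/- and 419, 358 and 414 in the double mutants, with Jag1 the most abundant. The summed nephron progenitor, ureteric tip and early nephron markers were below every wild type library in all 3 double mutant libraries. Those of the stroma were not.

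Most stromal and leukocyte markers were higher. Of 9 stromal markers 7 rose, with a median of 1.56; the sums were 3232, 3385 and 3170 CPM in wild type, 4450, 4522 and 3489 in Hoxa-/- Hoxc+/-, 4054, 4990 and 5441 in Hoxa+/- Hoxc-/- and 8516, 10480 and 9372 in the double mutants, with Col3a1 the most abundant. Of the stromal sums Col3a1, a collagen gene, alone made up 1586, 1621 and 1433 CPM in wild type and 4019, 5134 and 4512 in the double mutants. Tcf21 of the same list overlapped between the groups, at 188, 235 and 234 CPM in wild type and 188, 215 and 230 in the double mutants. The 8 markers of mature nephron and collecting duct had a median of 0.59, with sums that overlapped between the groups. These sums, with Lrp2 the most abundant, were 3312, 2145 and 2014 CPM in wild type, 1085, 3054 and 3378 in Hoxa-/- Hoxc+/-, 3404, 2374 and 2203 in Hoxa+/- Hoxc-/- and 3338, 4553 and 2828 in the double mutants. Replicate 27 had the highest of these sums and replicate 20 the lowest, the reverse of their places for the cell cycle members. Wild type replicate 30 and Hoxa+/- Hoxc-/- replicate 38 were the lowest of their groups for 37 and 43 members. Both had the highest sum of mature markers in their groups. A sum is weighted to its most abundant genes, and not every single marker followed this order. Of 7 leukocyte markers 4 rose, with a median of 1.07; the sums were 82.9, 77.6 and 74.3 CPM in wild type, 83.0, 79.5 and 80.4 in Hoxa-/- Hoxc+/-, 86.5, 90.3 and 106 in Hoxa+/- Hoxc-/- and 159, 161 and 120 in the double mutants, with Csf1r the most abundant.

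Among the remaining lists, 0 of 9 erythroid markers passed the test in edgeR (4 at an unadjusted p under 0.05), with a median of 0.56 and sums of 778, 1483 and 1533 CPM in wild type, 2108, 856 and 1066 in Hoxa-/- Hoxc+/-, 756, 1987 and 6025 in Hoxa+/- Hoxc-/- and 1763, 1785 and 1359 in the double mutants, with Hbb-bs the most abundant. None of 5 endothelial markers passed (3 at an unadjusted p under 0.05; median 0.22), with Cdh5 the most abundant and sums of 651, 700 and 654 CPM in wild type, 553, 680 and 668 in Hoxa-/- Hoxc+/-, 653, 672 and 684 in Hoxa+/- Hoxc-/- and 754, 799 and 739 in the double mutants. Liver markers, Afp the most abundant, summed to 78.7, 89.1 and 46.3 CPM in wild type, 83.3, 97.7 and 145 in Hoxa-/- Hoxc+/-, 128, 65.9 and 75.6 in Hoxa+/- Hoxc-/- and 138, 144 and 69.8 in the double mutants, and 2 of 4 rose. Skeletal muscle markers summed to 2.28, 2.01 and 5.74 CPM in wild type and 5.395, 2.74 and 2.19 in Hoxa-/- Hoxc+/-. The sums were 2.23, 5.34 and 5.26 in Hoxa+/- Hoxc-/- and 7.84, 7.97 and 3.82 in the double mutants, and 1 of 4 rose. Tnnt3 was the most abundant by mean over the 12 libraries. In the double mutants Acta1, at 2.7, 3.83 and 1.26 CPM, was above Tnnt3, at 1.44, 1.38 and 1.15 CPM. No marker of these 10 lists was at 0 in every library, and Ckm was the 1 at 0 in any.

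Sex differed between the groups as well. Xist, the RNA that coats the silent X chromosome in females, was at most 0.139 CPM in the 3 wild type libraries and in double mutant replicate 24, and 72.8 and 60.0 CPM in double mutant replicates 27 and 29. It was at 0.0383, 190 and 253 CPM in Hoxa-/- Hoxc+/- replicates 20, 31 and 33 and at 0.0586, 336 and 0.104 CPM in Hoxa+/- Hoxc-/- replicates 38, 110 and AC115. Of the 5 sex markers 4 were tested, all Y-linked and at 0 in some libraries, and none passed in edgeR, also at an unadjusted p under 0.05. The marker sums, which add Xist to the Y-linked genes, were 212, 198 and 192 CPM in wild type and 156, 190 and 253 in Hoxa-/- Hoxc+/-. They were 169, 336 and 142 in Hoxa+/- Hoxc-/- and 174, 72.8 and 60.4 in the double mutants. Xist was the most abundant only by mean over the 12 libraries. In wild type the Y-linked Ddx3y was highest, at 93.5, 85.2 and 90.7 CPM, as in double mutant replicate 24, at 82.4 CPM. In double mutant replicate 24, which like wild type had next to no Xist, Mki67 (132 CPM), Cenpe (39.2 CPM) and Cenpf (60.8 CPM) were below each wild type library, as they were in replicate 29. The fit of all 12 libraries called 5 members and 4.19% of all genes lower. With Xist as a covariate in that fit the members' median was -0.27, Mki67 and Cenpf were at -0.97 and -0.69, with 3.64% of all genes called lower, and Cenpe was the 1 member called, at -0.96 (adjusted p 0.00802, 8.43e-17 to 0.012 over the alternatives).

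The 3 lowest members are also those with the longest transcripts: Cenpf with 11130 bases, Mki67 with 10061 and Cenpe with 7910. Their median log2 fold change was -0.94, against -0.39 for the other 41 members. Across the 44 members Spearman's rho between log2 fold change and transcript length was -0.32, and across 15639 genes it was 0.01; genes share the same libraries and are not independent replicates. Over all genes the same rho was -0.20 in Hoxa-/- Hoxc+/- and 0.30 in Hoxa+/- Hoxc-/- against wild type (members -0.35 and 0.27), and 0.11 in double mutants against Hoxa-/- Hoxc+/- (members -0.12). Single libraries also differed by length: rho of the log2 ratio to the wild type mean was 0.33, -0.31 and -0.17 in wild type replicates 30, 37 and 55, -0.43, 0.39 and 0.23 in Hoxa-/- Hoxc+/- replicates 20, 31 and 33, 0.29, 0.37 and 0.21 in Hoxa+/- Hoxc-/- replicates 38, 110 and AC115, and -0.04, 0.03 and 0.02 in double mutant replicates 24, 27 and 29, over 14106 genes. Over the 44 members, in the same order of libraries, rho was 0.61, -0.39 and -0.23 in wild type and -0.46, 0.36 and 0.10 in Hoxa-/- Hoxc+/-. It was -0.02, 0.29 and 0.30 in Hoxa+/- Hoxc-/- and -0.42, -0.22 and -0.17 in the double mutants. After each library was corrected for transcript length and GC content in 20 bins, an alternative added after the data were seen, Mki67 was at -0.95 (adjusted p 0.00559), Cenpe at -0.89 (adjusted p 0.00347) and Cenpf at -0.66 (adjusted p 0.0131); the ranges over the alternatives given above include this fit. In that fit 5 members and 7.72% of all genes were called lower, Kif11 missing at an adjusted p of 0.0572, and the medians were -0.38 for mitosis and -0.39 for replication genes. Whether length has a part in the order of the members was not tested further.

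**Figure D5:**
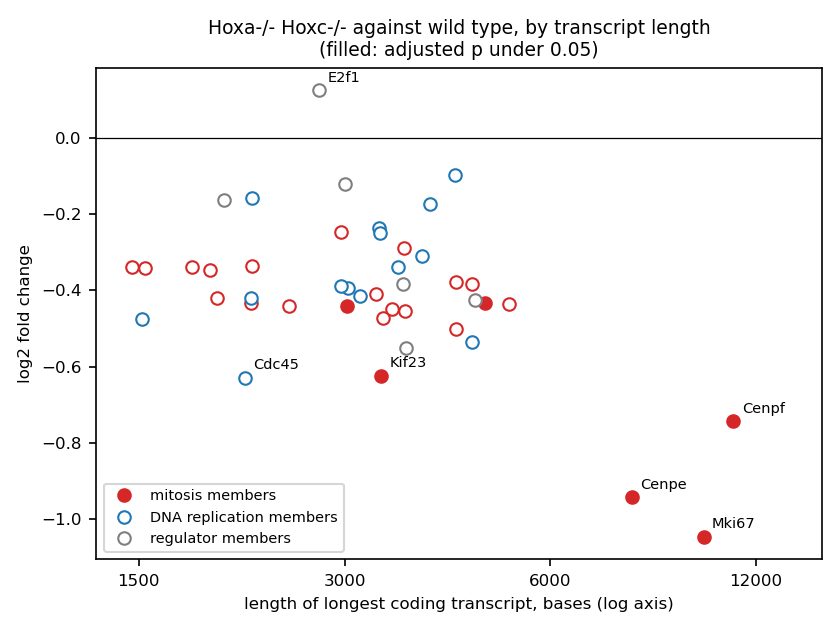
Log2 fold change in double mutants against wild type plotted against the length of the longest coding transcript (log axis) for the 44 members. Cenpf, Mki67 and Cenpe stand at the lower right, apart from the other 41, whose median is -0.39.

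In Hoxa-/- Hoxc+/- kidneys, where 1 functional set of Hoxc alleles remains, no member passed the test against wild type in edgeR, none had an unadjusted p under 0.05, and DESeq2 and limma also called 0 members. Of 15789 genes, 0% fell and 0% rose at the threshold, with 231 lower and 129 higher at an unadjusted p under 0.05, 22 called by DESeq2 and 1 by limma. Mki67 had 366, 251 and 229 CPM in replicates 20, 31 and 33, the first above and the other values below the wild type libraries. Cenpe had 72.2, 67.2 and 63.0 CPM and Cenpf 112, 93.0 and 85.1 CPM, so that Cenpe was the lowest of the 44 at a log2 fold change of -0.13 (SE 0.0958, adjusted p 0.9999) and Cenpf was at 0.03. At the other end, Ube2c had 215, 82.8 and 78.7 CPM and Pcna 425, 196 and 186 CPM, against 80.7 to 105 and 184 to 231 CPM in wild type, giving 0.39 and 0.33 with standard errors of 0.413 and 0.344. In both genes replicate 20 exceeded the sum of the other values of its group, and no member had groups that did not overlap, against 4.83% of all genes that were lower without overlap. The medians were 0.08 over all members, 0.02 for mitosis genes, 0.10 for replication genes and 0.12 for regulators, and 0.03 over all genes; 14 of 44 members were below 0. Without replicate 20, the median was -0.13 and 42 of 44 were below 0, with 0 members and 8 genes called. The 41 other replication, 48 other mitosis and 32 tested G1 genes also gave no call, with medians of 0.10, 0.02 and 0.03.

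In Hoxa+/- Hoxc-/- kidneys no member passed the test against wild type in edgeR, DESeq2 or limma, where 1.53% of 15902 genes fell and 0.836% rose. At an unadjusted p under 0.05 there were 2 members, both lower, Nusap1 and Ccnb1, against 11.2% of all genes lower and 9.88% higher, and these were also the 2 of 44 whose libraries were all below wild type, against 15.2% of all genes. Nusap1, which bundles spindle microtubules, had 60.7, 77.5 and 83.9 CPM in replicates 38, 110 and AC115 and 90.5, 96.4 and 102 CPM in wild type (log2 fold change -0.37, adjusted p 0.149). Ccnb1 had 78.1, 95.7 and 95.2 CPM against 101, 123 and 115.4 CPM (-0.33, adjusted p 0.154). By contrast Mki67 had 193, 334 and 391 CPM, so replicate 38 was below and the others above wild type (0.09), and E2f1 had 23.9, 33.2 and 29.2 CPM, the highest log2 fold change of the 44 at 0.27 (SE 0.134, adjusted p 0.294). The median was -0.08 over all members, -0.11 for mitosis genes, -0.08 for replication genes and 0.09 for regulators, against 0.01 over all genes, and 32 of 44 were below 0. Without replicate 38 the median was 0.01 and 20 of 44 were below 0. No gene of the 3 further cell cycle lists passed the test in edgeR (5 replication, 7 mitosis and 6 G1 genes had an unadjusted p under 0.05, beside 11.2% of all genes lower and 9.88% higher), with medians of -0.09, -0.10 and -0.06; Cdkn1b had 56.2, 58.1 and 67.8 CPM, all below wild type (-0.40, adjusted p 0.062).

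By their labels, double mutants and Hoxa-/- Hoxc+/- kidneys share the homozygous Hoxa alleles and differ in the last Hoxc set, but by the paper's account they differ in Hoxa11 too, so the comparison would not be of Hoxc alone. In this comparison edgeR called 0 members and 0% of 15764 genes in either direction, with 8 members below 0 at an unadjusted p under 0.05 among 858 genes lower and 929 higher; DESeq2 called 3 members and 554 genes, and limma 0 members and 1 gene. All 44 members were below 0, with medians of -0.42 for all, -0.44 for mitosis, -0.42 for replication and -0.37 for regulators, against -0.01 over all genes. The 3 members with the lowest p were again Cenpe at -0.79 (SE 0.125, adjusted p 0.126), Cenpf at -0.75 (SE 0.151, adjusted p 0.190) and Mki67 at -0.996 (SE 0.211, adjusted p 0.211); from the values given above, each had all double mutant libraries below all Hoxa-/- Hoxc+/- libraries. In total 23 members were apart in this way, against 12.7% of all genes. Without Hoxa-/- Hoxc+/- replicate 20, 687 genes and 3 members were called, Mki67 at -0.75 (adjusted p 0.0195, 0.00214 to 0.712 over the alternatives), Cenpe at -0.73 (adjusted p 0.0195, 1.08e-05 to 0.570) and Cenpf at -0.62 (adjusted p 0.0294, 0.00211 to 0.694), and the members' median was -0.24. The same 3 were called by DESeq2, in the fit of all 12 libraries and in that of the 9 libraries of the larger run. Without double mutant replicate 27 no member was called and the median was -0.26. This comparison and that with wild type share the double mutant libraries, so their values are given side by side and not as separate evidence.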

How the data were processed

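The 12 paired-end libraries (Illumina TruSeq) were aligned to mm10 in Strand NGS by the authors, without multi-aligned reads. The main table holds the deposited expected counts, which were rounded here. A further table holds the authors' log2 values, with a median of 0 per gene. Members and lists were chosen with earlier results of these data known. Genes were tested in edgeR 4.0.16 (R 4.3.3) by the quasi-likelihood test, two-sided, with TMM factors, filterByExpr (minimum count 10, total 15) and the 6 libraries of each comparison; p-values were adjusted by Benjamini-Hochberg over all genes tested, with a threshold of 0.05. CPM use TMM factors. Alternatives were RLE factors, library size only, all genes with at least 1 count, DESeq2 1.42.0, limma 3.58.1 on the deposited log2 values, all 12 libraries, the 9 libraries of the larger run, Xist as a covariate (prior count 0.5), leaving out each library, and, added later, a correction in 20 bins for length and GC content. The longest coding transcript came from GENCODE release 21 (32111 of 36186 genes, 44 of 44 members). Gene positions and promoters came from RefSeq. Lists were described by counts and medians, with no set test. Named outside the members are the 3 genes of lowest p in each further cell cycle list, Ccnd1, Cdkn1a and Cdkn1c, and from the marker lists the most abundant gene and some called or well-known ones; genes of 396 symbols listed more than once were kept apart. Steps were tested on simulated data. Plots used matplotlib 3.10.9 in Python 3.11.15.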

Additional observations from a re-analysis of the deposited data

How the results depend on the processing

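Over the alternatives and the fits without 1 library, the median log2 fold change of the members ranged from -0.51 to -0.23 in double mutants against wild type, -0.13 to 0.19 in Hoxa-/- Hoxc+/- and -0.15 to 0.01 in Hoxa+/- Hoxc-/- against wild type, and -0.55 to -0.24 in double mutants against Hoxa-/- Hoxc+/-. The correction for transcript length and GC content was added after the data were seen; the others were planned. In double mutants against wild type, where 6 members and 2171 genes were called, DESeq2 called 15 members and 3380 genes, limma 3 and 1215, the 9 libraries of the larger run gave 3 and 690, and the Xist covariate 1 and 1009; all 12 libraries gave 5 and 1190. Leaving out a library gave 3 to 7 members and 535 to 3386 genes. Library size only gave 8 members, and 1649 genes lower and 742 higher, against 1172 and 999. In Hoxa-/- Hoxc+/- against wild type, with 0 genes called, DESeq2 called 22, limma 1 and all 12 libraries 2, and leaving out a library 0 to 8. In Hoxa+/- Hoxc-/- against wild type, with 376 genes called, the counts were 1318 by DESeq2, 158 by limma, 149 with all 12 libraries, 134 with the Xist covariate and 97 with the length and GC correction, and 60 to 549 without a library. In double mutants against Hoxa-/- Hoxc+/-, with 0 members and 0 genes called, the counts of genes were 1 without a filter, 554 by DESeq2, 1 by limma, 540 with all 12 libraries, 181 with those 9 libraries, 653 with the Xist covariate and 2 with the length and GC correction, with 3 members by DESeq2, 3 with all 12 libraries, 3 with those 9 libraries and 2 with the Xist covariate; leaving out a library gave 0 to 687 genes and 0 to 3 members. The causes of these differences were not tested.

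Among the values for single genes that were followed over the settings, signs that changed were of values that were not called. Over the fits without 1 library in double mutants against wild type, Mcm6 ran from -0.1952 to 0.04145, Rrm1 from -0.3364 to 0.02336, Ccne1 from -0.2686 to 0.016 and Ccne2 from -0.225 to 0.06039, each above 0 only without replicate 27. In Hoxa-/- Hoxc+/- against wild type, Mki67 ran from -0.2749 to 0.09967 and Cenpf from -0.1005 to 0.1097, Cdk1 from -0.2234 to 0.4522 and Pcna from -0.1734 to 0.5426, the lowest of each without replicate 20. There Cenpf was also at -0.06138 by library size only, and Mki67 at 0.03354 with the Xist covariate and 0.067 with the length and GC correction. In Hoxa+/- Hoxc-/- against wild type, Mki67 ran from -0.1242 to 0.3252 and Cenpe from -0.03764 to 0.2092, the highest of both without replicate 38, and Mki67 was at -0.08947 with the length and GC correction. The cause was not tested. Of the other values followed, 486 under alternatives and 321 without a library kept their sign and side of the threshold. Under alternatives 14 no longer passed and 22 newly passed, and without a library 12 and 7. These values do not cover every member in every comparison. In Hoxa-/- Hoxc+/- against wild type, 14 of the 44 members were below 0, and 42 without replicate 20. In Hoxa+/- Hoxc-/- against wild type, 32 of the 44 were below 0, and 20 without replicate 38. No paired analysis was possible because the sample labels do not give the litter of the embryos. With 3 libraries a group, moderate differences can be missed; rounding and single reads matter little at the members' counts.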
